A study of Homo sapiens with 6 samples.

Results

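The prostaglandin synthesis and receptor genes described here are 10 genes, chosen by name from 16279 genes with earlier results of these data known. They comprise the phospholipase gene PLA2G4A, the cyclooxygenase genes PTGS1 and PTGS2, the synthase genes PTGES, PTGES2, PTGES3 and PTGIS, the reductase gene PTGR1, and the receptor genes PTGER2 and PTGER4. They were measured by RNA-seq in 12Z cells, an established line of human endometriotic epithelial cells. The control cells (NC) received no treatment, and the rhChemerin cells received recombinant human chemerin (rhChem157S) at 10 ng/mL for 48 h. Chemerin is a protein secreted by fat and other tissues that acts on G protein-coupled receptors. Each group had 3 libraries, labelled as biological replicates of this 1 cell line, and all 6 libraries came from the same line without any genetic change named in the labels. The comparison asks how the genes that make, clear and sense prostaglandins differed between treated and untreated cells.

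Prostaglandins are lipid mediators made from arachidonic acid, which phospholipase A2 cuts from membrane phospholipids. Cyclooxygenases turn arachidonic acid into prostaglandin H2, and terminal synthases turn this into prostaglandin E2, prostacyclin and the other prostanoids. In the endometrium these mediators are known for their parts in menstruation, implantation and decidualisation, and prostaglandin E2 is known for its part in endometriosis.

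Total counts ran from 35430881 to 38341643 per library. The library rhChemerin 3 had the fewest genes above 0 counts, 14617, against 14679 to 15101 in the other libraries, and the lowest TMM factor, 0.898, against 0.973 to 1.05. TMM factors are edgeR's correction of library size for differences in composition. Among epithelial markers, KRT8, KRT18 and KRT19 were abundant, at 277.1 FPKM or more in every library, but EPCAM (0.125 to 0.807 FPKM) and CDH1 (0.0859 to 0.381 FPKM) were near 0, so the markers of the labelled cell type were only partly present. FPKM are read counts divided by gene length and library total, so that levels can be compared between genes. The stromal collagen gene COL1A1 reached 728.1 to 1165 FPKM. The summed FPKM of 8 stromal markers was 1612 to 2079 in NC and 1147 to 2210 in rhChemerin, with the lowest value in rhChemerin 3. The sums hide single markers that differed. By DESeq2, MME (adjusted p = 5.2e-05) and PDGFRA (0.0206) were higher in rhChemerin, and MUC1 (0.0404), VWF (0.00489) and CD14 (0.000432) were lower, while edgeR called 0 (adjusted p from 0.0707 to 0.135 for these 5). EPCAM and CDH1 were also lower in every treated library, without passing either test. The 4 leukocyte markers summed to 121.7 to 171.5 FPKM in NC and 92.8 to 136.0 FPKM in rhChemerin, nearly all outside PTPRC, the defining leukocyte gene, which stayed at or below 0.0535 FPKM. The 5 endothelial markers summed to 1.61 to 2.01 FPKM in NC and 0.991 to 1.41 FPKM in rhChemerin. The part of these differences in the results was not tested. In bulk RNA, fewer cells of a type and less RNA per cell cannot be told apart.

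Results showed that, among the 10 genes, the synthases were far more abundant than the cyclooxygenases and receptors. The other listed prostanoid synthases ranged from a mean of 0.0170 FPKM (HPGDS) to 75.1 FPKM (CBR1) over the 6 libraries. In NC cells the mean FPKM fell in the order PTGES3 (69.0 ± 1.93, SD, n = 3), PTGES (48.03 ± 3.19), PTGR1 (41.9 ± 1.86), PTGIS (32.4 ± 6.65), PTGES2 (24.8 ± 2.17), PLA2G4A (2.53 ± 0.183), PTGS2 (1.07 ± 0.305), PTGER2 (0.968 ± 0.137), PTGER4 (0.177 ± 0.0860) and PTGS1 (0.0311 ± 0.0116). Neighbours in this order overlapped between libraries in the pairs PTGR1 and PTGIS, and PTGS2 and PTGER2. In rhChemerin cells PTGES3 (79.6 ± 3.78) and PTGES (32.2 ± 11.6) were again first and second, followed by PTGR1 (31.3 ± 8.71), PTGES2 (28.7 ± 4.25) and PTGIS (16.1 ± 8.83). There PTGES overlapped with PTGR1, PTGR1 with PTGES2, PLA2G4A with PTGS2, and PTGS2 with PTGER2. PTGS2 provided 91.8% or more of the summed cyclooxygenase FPKM in all 6 libraries.

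**Figure D1:**
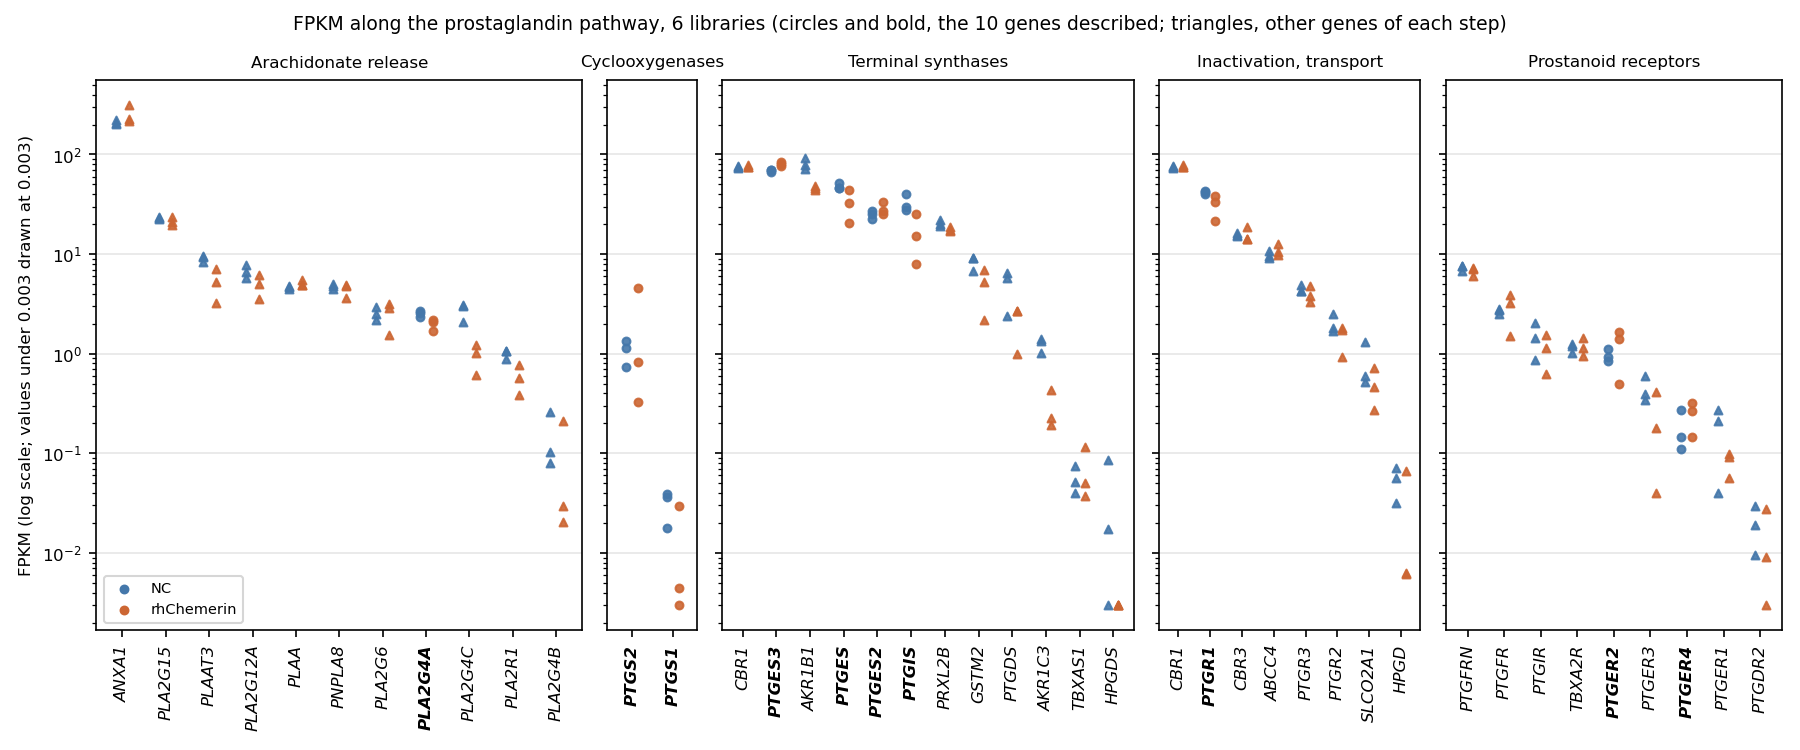
FPKM on a log scale for genes with a mean of at least 0.01 FPKM, ordered by mean within each step of the pathway. Each point is 1 library, blue for NC and orange for rhChemerin; circles and bold names are the 10 genes described and triangles are other genes of the step. The synthases PTGES, PTGES2, PTGES3 and PTGIS lie at 7.90 FPKM or above in every library, and both cyclooxygenases lie at 4.53 FPKM or below.

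Of the 10 genes, 9 passed edgeR's filter on low counts and were tested. PTGS1 did not pass and was described only. With edgeR's quasi-likelihood test and Benjamini-Hochberg adjustment over 13311 genes, 0 of the 9 had an adjusted p under 0.05, where 0.0301% of all tested genes did. Without adjustment PTGES3 (higher) and PTGIS (lower) had p under 0.05, 2 of 9, against 22.8% of all tested genes. DESeq2 called PTGES3 alone, and it called 9.05% of the 14382 genes to which it gave an adjusted p. In FPKM, PTGES3 was higher in every rhChemerin library than in every NC library, as were 7.36% of tested genes. PLA2G4A, PTGES, PTGIS and PTGR1 were lower in every rhChemerin library, as were 25.1% of tested genes. After TMM scaling, where 16.0% of genes were lower and 16.5% higher without overlap, PTGES and PTGIS remained lower, PTGES3 remained higher, and PLA2G4A and PTGR1 overlapped. With 3 libraries against 3, an exact two-sided permutation test of 1 gene cannot go below p = 0.10.

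**Figure D2:**
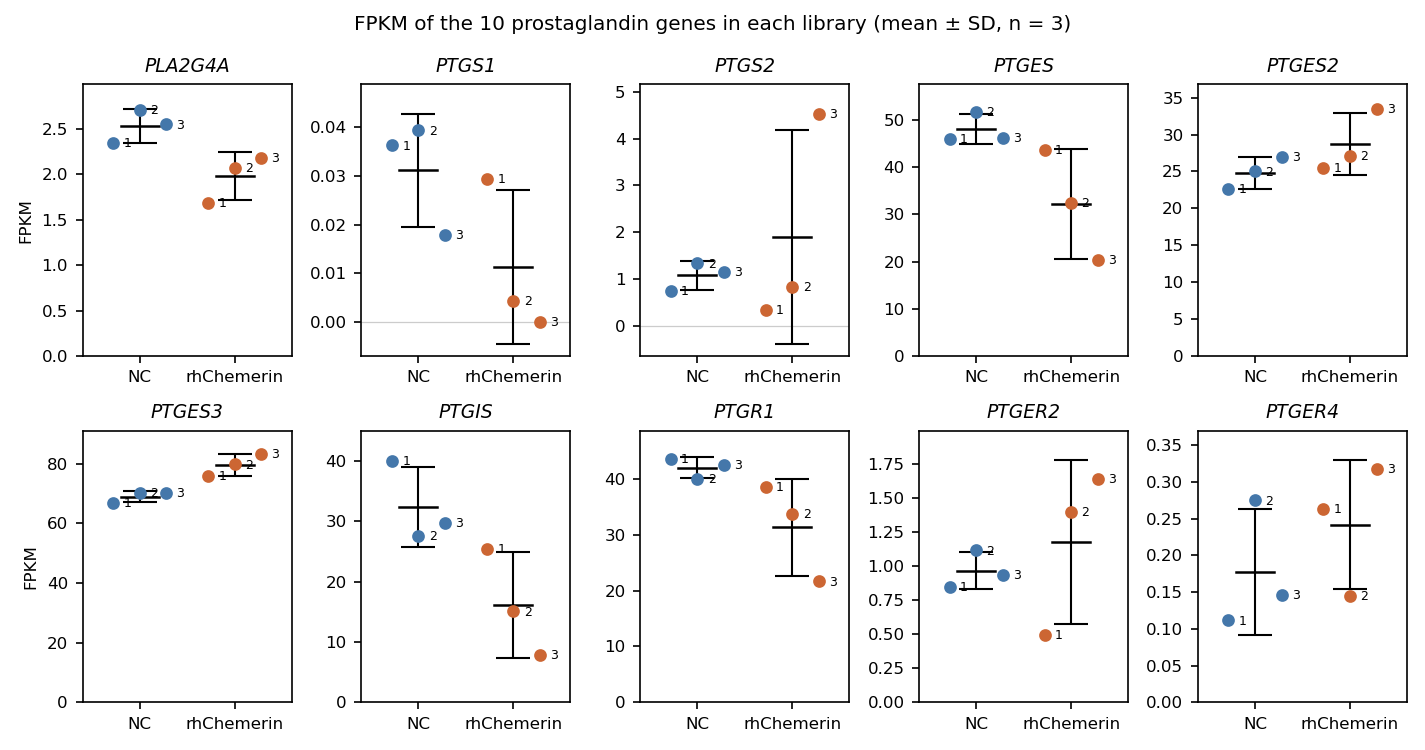
FPKM of each of the 10 genes on axes that include 0. Points are libraries numbered by replicate, with the mean and SD of each group (n = 3). PTGES3 is above all NC libraries in the 3 rhChemerin libraries, and PTGS2 spans 0.330 to 4.53 FPKM within the rhChemerin group.

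PLA2G4A encodes cytosolic phospholipase A2, which releases arachidonic acid from membranes. The gene lies on chromosome 1 (GRCh38, 186828953 to 186988981, plus strand), beside PTGS2 (186671791 to 186680427, minus strand). Its FPKM was 2.34, 2.71 and 2.55 in NC 1 to 3 and 1.68, 2.07 and 2.19 in rhChemerin 1 to 3. The treated libraries were all below the controls in FPKM, but the groups overlapped after TMM scaling. The rhChemerin group differed from NC by -0.22 on the log2 scale (SE, the standard error, 0.19), with an adjusted p of 0.512 with edgeR. It was -0.10 without rhChemerin 1, -0.35 without rhChemerin 3 and -0.36 with library size alone.

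The list of other phospholipases A2 and their regulators had 10 tested genes, of which 5 had a fold change above 0 and 5 below. Their median was -0.16 on the log2 scale, against 0.01 for all tested genes, but it was above 0 without NC 1 (0.03) and with the filter of 1 CPM (0.01), and it was -0.28 without rhChemerin 1 and -0.07 without rhChemerin 3. None passed with edgeR, where 5 had p under 0.05 without adjustment, 3 of them lower. DESeq2 called 2, both lower. Of all tested genes, 11.4% were lower at p under 0.05 without adjustment with edgeR. Of the 14382 genes to which DESeq2 gave an adjusted p, it called 5.30% lower. PLA2G4C, a relative of PLA2G4A, was at 2.73 ± 0.551 (SD, n = 3) FPKM in NC and 0.949 ± 0.309 FPKM in rhChemerin cells. Its difference was -1.41 in log2 units (SE 0.27, adjusted p = 0.0752 with edgeR and 6.52e-05 with DESeq2). PLA2R1, a receptor for secreted phospholipases, had a log2 fold change of -0.69 (adjusted p = 0.142 with edgeR and 0.0437 with DESeq2).

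The list of arachidonate supply and re-esterification genes had 13 tested genes, 10 with a fold change below 0, and a median of -0.37 on the log2 scale. Of all tested genes, 48.3% had a fold change below 0. DESeq2 called 3 of the 13, all lower, against 5.30% of all genes. With edgeR none passed, and 8 were lower at p under 0.05 without adjustment, against 11.4% of all genes, and 1 was higher. FADS1, a desaturase that makes arachidonic acid, was at 77.1 ± 15.3 (SD, n = 3) FPKM in NC and 45.7 ± 11.6 FPKM in rhChemerin cells (adjusted p = 0.135 with edgeR and 0.0284 with DESeq2). DAGLA, which makes the endocannabinoid 2-arachidonoylglycerol, had a log2 fold change of -0.60 (adjusted p = 0.102 with edgeR and 0.00836 with DESeq2). FAAH, which frees arachidonic acid from anandamide, had only 7 to 52 counts per library and a log2 fold change of -1.77 (adjusted p = 0.123 with edgeR and 0.0331 with DESeq2).

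PTGS1 and PTGS2 encode the cyclooxygenases. PTGS1 is known as the constitutive form and PTGS2 as the form induced by cytokines and growth factors. The 250 bases before the RefSeq start of each gene (GRCh38.p14) are shown because the letters differ between this pair. Capitals mark matches on either strand to TATAAA (the TATA box), GGGCGG (the GC box), CGTCA (the core of a cAMP response element), TTNNGNAAT (a C/EBP site) or GGACTNNCC (an NF-kB-type site).
PTGS2, chr1:186680424-186680673, minus strand: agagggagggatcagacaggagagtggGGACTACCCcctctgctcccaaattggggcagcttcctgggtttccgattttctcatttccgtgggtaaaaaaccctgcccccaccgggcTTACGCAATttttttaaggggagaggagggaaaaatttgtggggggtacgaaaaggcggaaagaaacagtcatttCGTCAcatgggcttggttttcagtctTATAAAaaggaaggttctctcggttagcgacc
PTGS1, first of 2 starts, chr9:122370283-122370532, plus strand: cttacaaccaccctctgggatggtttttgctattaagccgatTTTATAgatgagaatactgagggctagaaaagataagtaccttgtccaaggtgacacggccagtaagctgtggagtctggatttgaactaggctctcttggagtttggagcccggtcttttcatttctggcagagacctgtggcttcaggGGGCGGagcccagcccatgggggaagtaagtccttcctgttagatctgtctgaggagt
In PTGS2 the TATA box lay 32 to 27 bases before the start, the cAMP response element core 58 to 54, the C/EBP site 133 to 125 and the NF-kB-type site 223 to 215. In PTGS1 there were a GC box 58 to 53 bases before the first start and a reverse match to the TATA letters 208 to 203 bases before it. The window of the second PTGS1 start, not shown, held a GC box at 202 to 197 and none of the other motifs. Of 35116 promoters of this length, 10.7% held TATAAA, 42.6% GGGCGG, 21.2% CGTCA, 9.85% TTNNGNAAT and 3.66% GGACTNNCC. A match describes letters only, and no factor's binding was measured.

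PTGS1, on chromosome 9 from 122370530 to 122395703, was near the limit of detection. It had 8, 9 and 4 counts in NC 1 to 3 and 7, 1 and 0 counts in rhChemerin 1 to 3. The groups overlapped, with 21 counts over NC and 8 over rhChemerin. A count of 0 in rhChemerin 3 allows up to 3 counts, or 0.0802 CPM (counts scaled to the library total), for counting error only. A difference in PTGS1 was not detectable at this depth (adjusted p = 0.588 with DESeq2).

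PTGS2 varied more within the rhChemerin group than between the groups. Its FPKM was 0.738, 1.33 and 1.15 in NC 1 to 3 and 0.330, 0.825 and 4.53 in rhChemerin 1 to 3, from 118, 221 and 187 counts and from 57, 135 and 764 counts. The rhChemerin group thus held both the lowest and the highest of the 6 libraries, and the groups overlapped. On the log2 scale the difference between rhChemerin and NC was 1.01 (SE 0.87), with an adjusted p of 0.502 with edgeR and of 0.595 with DESeq2. The difference was 0.10 with limma on log2(FPKM + 0.1), 0.21 with limma on log2(FPKM + 1) and 0.19 with the replicate number as a block. Without rhChemerin 3 it was -0.81, so that the direction rests on this library.

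The tested genes whose log2 CPM followed PTGS2 most closely over the 6 libraries were HIPK2 (Pearson r = 0.999), RABIF (0.997), GNA11 (0.991), PTP4A1 (0.991) and SCRIB (0.991). They were chosen as the highest values over these same 6 libraries, and 153 of 13310 genes had r above 0.95, or 1.15%. Their excursions were smaller than that of PTGS2. In rhChemerin 3, PTGS2 was 2.33 above the NC mean on the log2 CPM scale, against 0.76 for HIPK2 and 0.11 for GNA11. These log2 CPM carry TMM factors. In FPKM, which carry none, GNA11 was lower in every rhChemerin library (45.3 to 46.0) than in every NC library (48.1 to 50.3). PTGS1 was not tested, and no likeness was computed for it.

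The 14 listed regulators of PTGS2 transcription and mRNA decay included 13 tested genes, with a median log2 fold change of 0.20, which was 0.01 without rhChemerin 3. Of these, 10 were above 0 and 3 below. ZFP36, which promotes decay of AU-rich mRNAs, was the only one called by DESeq2, 1 of 13 against 9.05% of all genes, and edgeR called 0, with 2 at p under 0.05 without adjustment, against 22.8%. ZFP36 was at 18.6 ± 1.18 (SD, n = 3) FPKM in NC and 22.7 ± 1.62 FPKM in rhChemerin cells (log2 fold change 0.42, adjusted p = 0.123 with edgeR and 0.0422 with DESeq2). TNFAIP3, an inhibitor induced by NF-kB, and IL1B, an inflammatory cytokine, are named after their values were seen. In rhChemerin 1 to 3, TNFAIP3 was -0.78, 0.92 and 2.78 from its NC mean on the log2 CPM scale and IL1B was -0.99, 0.75 and 2.26. PTGS2 was at -1.56, -0.23 and 2.33 in the same libraries. All 3 genes were lowest in rhChemerin 1 and highest in rhChemerin 3, the pattern for which TNFAIP3 and IL1B were picked. JUN and CEBPB of the list also ran this way, at -0.56 and -0.40 in rhChemerin 1 and 1.10 and 0.55 in rhChemerin 3. In FPKM, so did ZFP36L1 (56.5 and 93.2) and RELA (41.7 and 56.3). On the log2 CPM scale, however, RELA was lowest in NC 2, at -0.10, against -0.08 in rhChemerin 1. The other genes of the list did not run this way. CEBPD, for example, was at 120.3 to 163.8 FPKM in NC and lowest in rhChemerin 3, at 31.6 FPKM. JUN, CEBPB, ZFP36L1, RELA and CEBPD are also named after their values were seen.

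**Figure D3:**
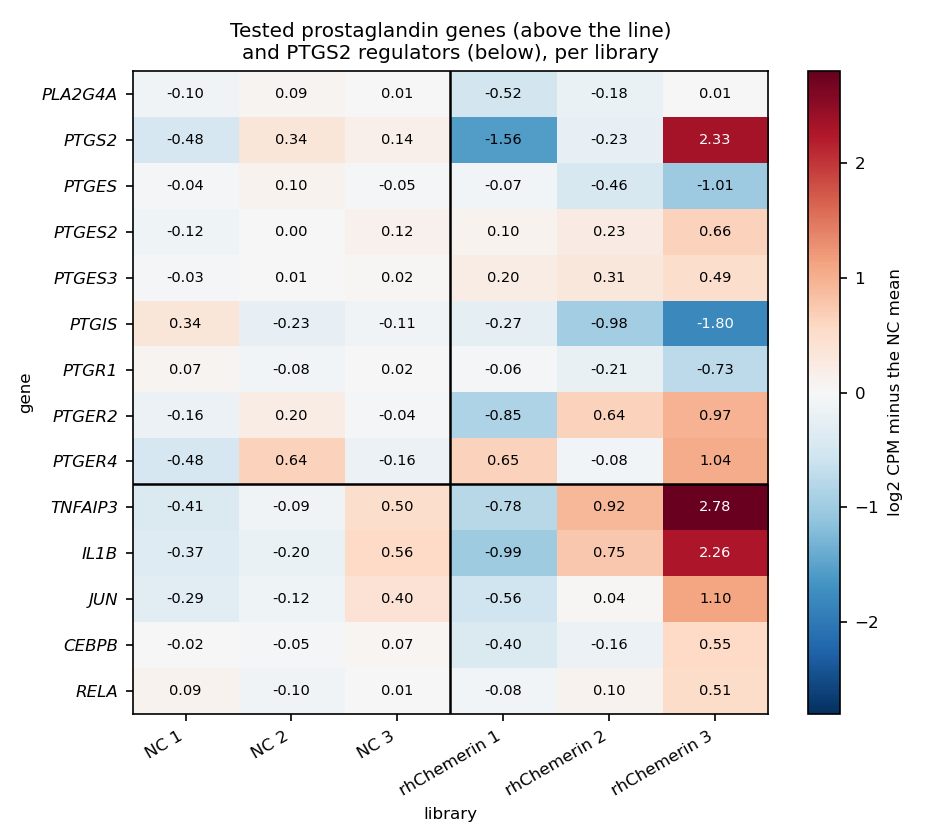
Log2 CPM minus the NC mean, by library, for the 9 tested prostaglandin genes (above the line) and 5 listed regulators of PTGS2 chosen after their values were seen (below). Red is higher and blue lower than the NC mean; PTGS2 reaches 2.33 and PTGIS -1.80 in rhChemerin 3.

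PTGES, PTGES2 and PTGES3 encode the 3 prostaglandin E synthases. PTGES, the microsomal form that is known to work with PTGS2, lies on chromosome 9 (129738331 to 129753047). In FPKM it was at 46.1, 51.7 and 46.3 in NC 1 to 3 and 43.7, 32.5 and 20.4 in rhChemerin 1 to 3. The treated libraries were all below the controls, by little in rhChemerin 1 and by most in rhChemerin 3. The estimate of rhChemerin against NC was -0.46 in log2 units (SE 0.21), with an adjusted p of 0.247 with edgeR and of 0.185 with DESeq2. Without rhChemerin 1 it was -0.72, and without rhChemerin 3 it was -0.25.

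PTGES2, a membrane-associated form, lies on chromosome 9 (128120693 to 128128462). In FPKM it was at 22.6, 25.01 and 26.9 in NC 1 to 3 and 25.5, 27.1 and 33.5 in rhChemerin 1 to 3. The groups overlapped, and rhChemerin 3 was the highest library. The rhChemerin group differed from NC by 0.35 on the log2 scale (SE 0.15), with an adjusted p of 0.232 with edgeR and of 0.212 with DESeq2. It was 0.17 without rhChemerin 3 and 0.21 with library size alone.

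PTGES3, the cytosolic form, is also known as p23, a co-chaperone of HSP90. It lies on chromosome 12 (56663341 to 56688408). In FPKM it was at 66.8, 70.2 and 70.1 in NC 1 to 3 and 75.8, 79.8 and 83.4 in rhChemerin 1 to 3, from 8211 to 10814 counts. All 3 treated libraries were above all 3 controls, and the SD was 1.93 in NC and 3.78 in rhChemerin. In log2 units the difference was 0.34 (SE 0.10), the best determined among the 9 tested genes. Its adjusted p was 0.123 with edgeR and 0.0399 with DESeq2. DESeq2 no longer called it without any 1 of the NC libraries or rhChemerin 2 (adjusted p from 0.145 to 0.250). The log2 fold change was 0.26 to 0.40 with 1 library left out, and 0.21 with library size alone. The annotation holds 5 pseudogenes of PTGES3, so reads shared with near-identical copies may have affected its count.

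The 250 bases before the RefSeq start of PTGES (GRCh38.p14) are shown for comparison with PTGS2, with which it is known to be induced. Capitals mark the motifs given above and GCGTGGGCG (an EGR1 site), which 0.72% of promoters held.
PTGES, chr9:129753043-129753292, minus strand: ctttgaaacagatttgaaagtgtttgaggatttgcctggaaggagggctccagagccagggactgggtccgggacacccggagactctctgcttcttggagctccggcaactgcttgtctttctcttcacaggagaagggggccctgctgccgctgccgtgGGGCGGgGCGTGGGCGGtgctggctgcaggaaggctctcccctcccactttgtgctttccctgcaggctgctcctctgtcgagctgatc
In PTGES the EGR1 site lay 82 to 74 bases before the start and overlapped the second of 2 GC boxes, at 78 to 73. The window held none of the other motifs searched, while that of PTGS2 held no GC box and no EGR1 site. GC made up 61.2% of the PTGES window, against 50.4% for PTGS2 and a median of 58.0% over all promoters. A link between these letters and the levels of either gene was not tested.

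PTGIS encodes prostacyclin synthase and lies on chromosome 20 from 49503874 to 49568146. It had the fold change farthest below 0 among the 9 tested genes. Its FPKM was 40.0, 27.6 and 29.7 in NC 1 to 3 and 25.5, 15.1 and 7.90 in rhChemerin 1 to 3, from 7895, 5643 and 5961 counts and from 5437, 3046 and 1645 counts. All 3 treated libraries were below all 3 controls, though rhChemerin 1 lay close to NC 2. On the log2 scale the difference between rhChemerin and NC was -0.90 (SE 0.35), with an adjusted p of 0.194 with edgeR and of 0.0582 with DESeq2. Without rhChemerin 1 it was -1.36, with an adjusted p of 0.0411 from edgeR, and without rhChemerin 3 it was -0.60.

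Of the 8 other prostanoid synthase genes listed, 7 were tested, 5 of them with a fold change below 0, and the median was -0.67 on the log2 scale, or -0.38 without rhChemerin 3. DESeq2 called 2, both lower (5.30% of all genes), and edgeR none, with these 2 at p under 0.05 without adjustment (11.4% of all genes). AKR1B1, an aldose reductase that can make prostaglandin F2alpha, was at 72.2, 78.3 and 91.8 FPKM in NC 1 to 3 and 48.3, 44.5 and 46.5 FPKM in rhChemerin 1 to 3. Its groups did not overlap, with a difference of -0.67 in log2 units (SE 0.11, adjusted p = 0.0707 with edgeR and 7.36e-05 with DESeq2). AKR1C3, a prostaglandin F synthase, was at 1.26 ± 0.209 (SD, n = 3) FPKM in NC and 0.285 ± 0.129 FPKM in rhChemerin cells, from 14 to 96 counts. Its difference was -2.02 in log2 units (SE 0.39, adjusted p = 0.0752 with edgeR and 0.000228 with DESeq2), and it has near-identical relatives that may share its reads.

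PTGR1 encodes a reductase that inactivates 15-keto prostaglandins and leukotriene B4, on chromosome 9 from 111549722 to 111599893. Its FPKM was 43.5, 39.9 and 42.5 in NC 1 to 3 and 38.5, 33.7 and 21.6 in rhChemerin 1 to 3. The groups did not overlap in FPKM but did after TMM scaling, and rhChemerin 3 was the lowest library. The estimate of rhChemerin against NC was -0.31 in log2 units (SE 0.17), with an adjusted p of 0.309 with edgeR, and it was -0.14 without rhChemerin 3 and -0.46 with limma on log2(FPKM + 0.1). Among the 6 other tested genes of prostaglandin inactivation and transport, 3 had a fold change above 0 and 3 below. Their median was 0.03 on the log2 scale, but it was below 0 with library size alone (-0.09), upper quartile factors (-0.01), limma on log2(FPKM + 0.1) (-0.10) and log2(FPKM + 1) (-0.08), and without rhChemerin 1 (-0.09). None was called by edgeR or DESeq2, and 0 had p under 0.05 with edgeR without adjustment. CBR1, a carbonyl reductase with the smallest p of that list, was at 74.4 ± 1.75 (SD, n = 3) and 75.9 ± 1.90 FPKM (adjusted p = 0.259 with edgeR). HPGD, the main prostaglandin dehydrogenase, named after its values were seen, was at 0.00618 to 0.0717 FPKM in the 6 libraries.

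PTGER2 and PTGER4 encode EP2 and EP4, the receptors of prostaglandin E2 that raise cAMP. PTGER2 lies on chromosome 14 (52314305 to 52328606). In FPKM it was at 0.850, 1.12 and 0.937 in NC 1 to 3 and 0.499, 1.40 and 1.64 in rhChemerin 1 to 3. The treated libraries lay on both sides of the controls. The rhChemerin group differed from NC by 0.44 on the log2 scale (SE 0.46), with an adjusted p of 0.580 with edgeR and of 0.605 with DESeq2. It was 0.06 without rhChemerin 3, 0.81 without rhChemerin 1, 0.28 with the replicate number as a block and 0.11 with limma on log2(FPKM + 1).

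PTGER4 lies on chromosome 5 from 40679498 to 40693735 and was sparse. It had 9, 23 and 12 counts in NC 1 to 3 and 23, 12 and 27 counts in rhChemerin 1 to 3, or 0.112 to 0.275 and 0.145 to 0.317 FPKM. The groups overlapped. On the log2 scale the difference between rhChemerin and NC was 0.58 (SE 0.54), with an adjusted p of 0.536 with edgeR. It was 0.28 without rhChemerin 3, 0.35 without NC 1, 1.04 without NC 2 and 0.08 with limma on log2(FPKM + 1). The annotation holds 2 pseudogenes of PTGER4.

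Of the 8 other prostanoid receptor genes and regulators listed, 5 were tested. Their median was 0.03 in log2 units, but it was below 0 with library size alone (-0.10), upper quartile factors (-0.01), limma on log2(FPKM + 0.1) (-0.10) and log2(FPKM + 1) (-0.09), and without NC 1 (-0.02), rhChemerin 1 (-0.06), rhChemerin 2 (-0.01) or rhChemerin 3 (-0.03). None was called by edgeR or DESeq2, and 0 had p under 0.05 with edgeR without adjustment. PTGER3, which encodes EP3 and had the smallest p, was at 0.592, 0.393 and 0.343 FPKM in NC 1 to 3 and 0.416, 0.180 and 0.0403 FPKM in rhChemerin 1 to 3 (adjusted p = 0.405 with edgeR). Its log2 fold change of -0.97 was -1.88 without rhChemerin 1 and -0.49 without rhChemerin 3. PTGFR, the prostaglandin F receptor, was at 1.49 to 3.86 FPKM and PTGIR, the prostacyclin receptor, at 0.631 to 2.04 FPKM. Both are named after their values were seen, and the levels of PTGFR were above those of PTGER4 in every library.

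**Figure D4:**
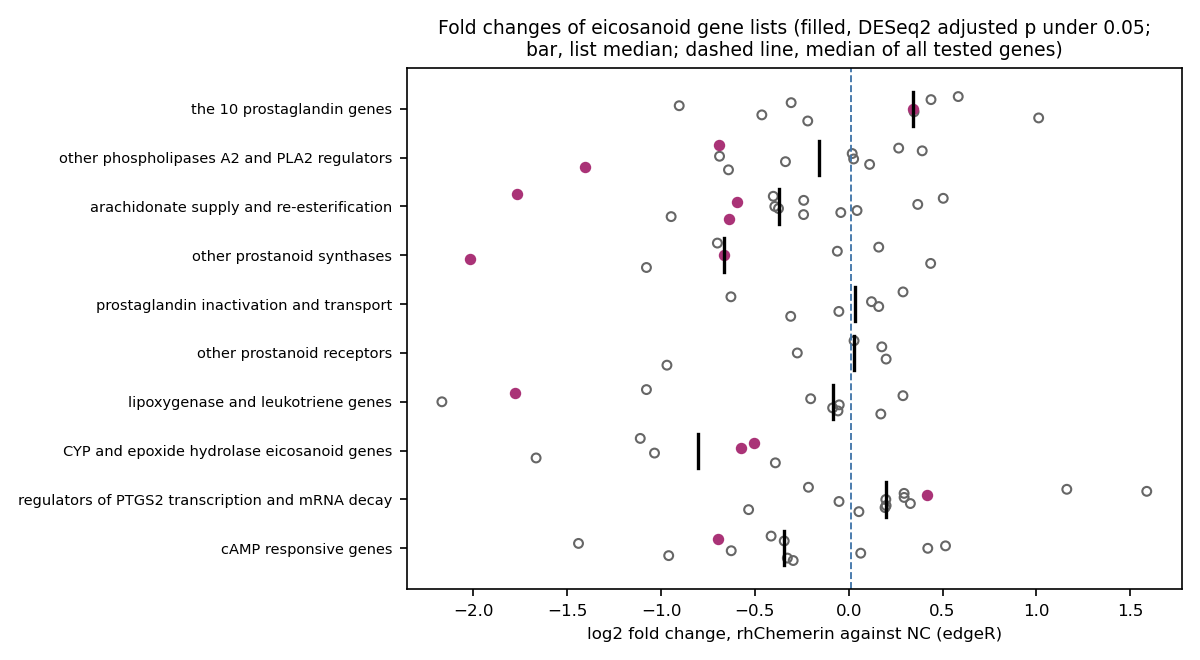
Log2 fold change of rhChemerin against NC (edgeR) for the tested genes of each list, 1 point per gene, filled where DESeq2 gave an adjusted p under 0.05. Black bars are list medians, from -0.80 for the CYP and epoxide hydrolase genes to 0.34 for the 10 prostaglandin genes (9 tested; -0.14 without rhChemerin 3), and the dashed line is the median of all tested genes, 0.01.

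Across the 9 tested genes, the library farthest from the NC mean on the log2 CPM scale was rhChemerin 3 in 8. PLA2G4A was the exception, with rhChemerin 1 farthest at -0.52. In rhChemerin 3, PTGS2, PTGES2, PTGES3, PTGER2 and PTGER4 were above the NC mean, and PTGES, PTGIS and PTGR1 were below it. In rhChemerin 1, PTGR1 was at -0.06 and PTGES2 at 0.10 from the NC mean, within the range of the NC libraries, and PTGES at -0.07 was just below the lowest NC library, at -0.05. PTGES3 was above the range of the NC libraries in every treated library, at 0.20, 0.31 and 0.49. The part of the lower TMM factor of rhChemerin 3 in these values was not tested.

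**Figure D5:**
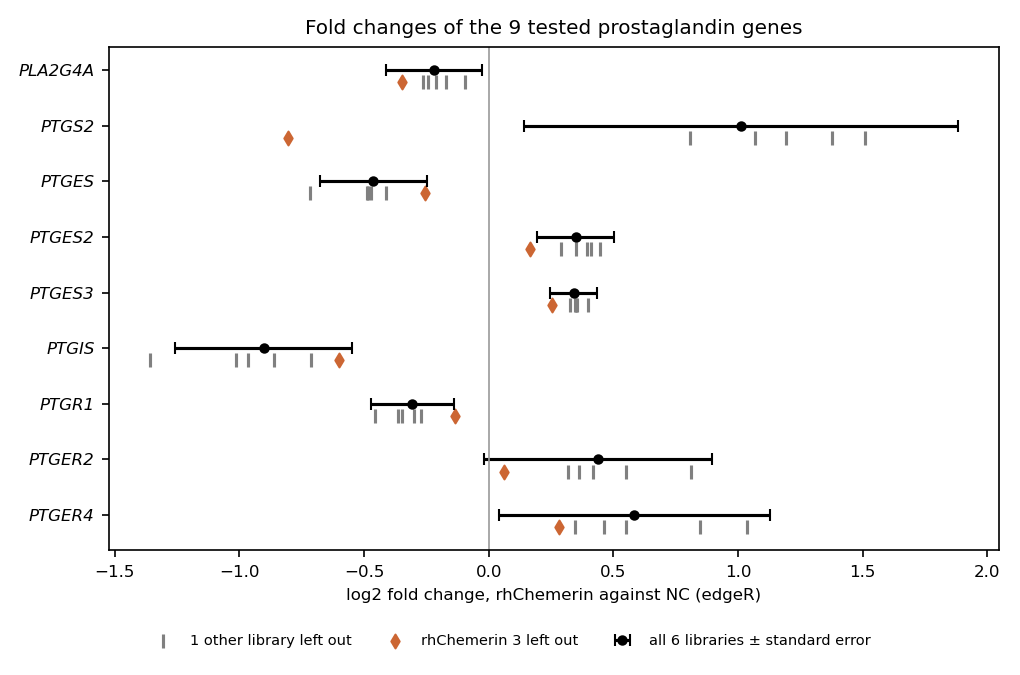
Log2 fold change of rhChemerin against NC for the 9 tested genes with edgeR, with the standard error, and below each the same value with 1 library left out. The orange diamonds mark the values without rhChemerin 3, which for PTGS2 is -0.81 against 1.01 with all libraries.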

How the data were processed

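RNA-seq of 12Z cells gave 3 NC and 3 rhChemerin libraries, grouped by their titles. The dose and time come from the methods of the study. The authors trimmed reads with fastp, aligned them to GRCh38.p13 with HISAT2, counted them per gene with HTSeq-count and used DESeq2. They deposited read counts without normalization and FPKM for 16279 genes. The strand setting and annotation release were not given in the sources used here. The deposited FPKM equalled count divided by gene length and library total, within 0.1%, in 89195 of 89195 values compared, so FPKM carry no TMM factor.

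Counts were tested in R 4.3.3 with edgeR 4.0.16 (filterByExpr, TMM, quasi-likelihood test, Benjamini-Hochberg adjustment over 13311 genes, threshold 0.05). As alternatives, DESeq2 1.42.0 was run on the counts and limma 3.58.1 on the FPKM, with a pseudocount of 1 or 0.1 before the log2. Scaling factors, filters and dispersion settings were varied, replicate numbers were tried as a block, and each library was omitted in turn. Omission of libraries with DESeq2, TMM scaling of the overlap count and the correlations without each library were added after seeing the data. Log2 CPM used TMM factors and a prior count of 2. On simulated data of 13311 genes with 200 changed, with a median change of 2.00 on the log2 scale, 198 were recovered by edgeR (9 false calls), 195 by DESeq2 (14 false calls) and 196 by limma with a pseudocount of 1 (9 false calls). The simulation gave all genes the same spread between libraries and made no library deviate. It therefore does not measure the power for smaller changes in the real libraries. With 35430881 to 38341643 counts per library, 1 count in a gene of 1 kb was 0.0282 FPKM or less. Intervals and floors cover counting error only. P-values measure the spread between these libraries of 1 cell line.

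The genes and lists were chosen with earlier results of these data known. Named were the 10 genes, the listed genes with an adjusted p under 0.05 by edgeR or DESeq2 (else the smallest p of a list) and the 5 genes most like PTGS2. Markers, and genes said to be chosen after seeing their values, are named besides. Gene positions are those of GENCODE release 29 on GRCh38. Promoters are from RefSeq on GRCh38.p14, which matched 9 of the 10 genes by symbol, and motifs were searched on both strands in the 250 bases before the start. PLA2G4E, PLA2G2A, PLA2G5, PLA2G10, ALOX15B, CYP4A11 and CD3E were not analysed here.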

Additional observations from a re-analysis of the deposited data

How the results depend on the processing

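Over all tested genes, 4 had an adjusted p under 0.05 with edgeR. The count was 1302 with DESeq2, 179 with limma on log2(FPKM + 1), 23 with limma on log2(FPKM + 0.1), 17 without a filter on low counts, 15 with edgeR's legacy=FALSE, 0 with upper quartile factors and 1 with the replicate block. It ran from 0 to 2616 with 1 library left out (edgeR gave 844 without rhChemerin 1, 415 without rhChemerin 3 and 0 otherwise). Of the prostaglandin genes, edgeR called 0, DESeq2 called 1 (PTGES3), and leaving out 1 library gave 0 to 3. Without rhChemerin 1, edgeR called PTGIS, and DESeq2 called PTGES, PTGES3 and PTGIS. Without any 1 of the NC libraries or rhChemerin 2, DESeq2 called 0 of them. The 5 prostaglandin genes without overlap between groups became 3 with TMM factors and 3 with RLE factors, and 5 to 8 with 1 library left out (8 without rhChemerin 1). The filters do not enter this count. Library size alone moved the median log2 fold change of all tested genes from 0.01 to -0.12. PTGS2 reversed without rhChemerin 3 (range with 1 library left out -0.81 to 1.51), and no other prostaglandin gene changed direction under the alternatives run. The replicate numbers are shared by the groups. Deviations of same-numbered libraries correlated at 0.24, 0.00 and 0.25, the first and last being the highest of all pairs. Differently numbered pairs ran from -0.31 to 0.11, and NC 2 correlated best with rhChemerin 1 (0.11). These values do not settle whether the numbers pair the libraries. The main test was unpaired, and the block was an alternative. With the block, edgeR gave PTGIS an adjusted p of 0.081, against 0.194 in the main test, and called 0 prostaglandin genes. Of the 13 genes named here that DESeq2 called with all libraries, PLA2G4C, AKR1C3, AKR1B1, GGT1 and PER1 were called in all 6 of its fits with 1 library left out, DAGLA in 4, FADS1, CYP1B1 and EPHX1 in 3, PTGES3 and ZFP36 in 2, and PLA2R1 and FAAH in 1. The causes of these changes were not tested. Depth limits PTGS1 and PTGER4 most, with 0 to 27 counts per library.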

Other observations

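The list of CYP and epoxide hydrolase genes, which oxidise arachidonic acid or hydrolyse epoxides, had 6 tested genes, all with a fold change below 0 (median -0.80 on the log2 scale, against 0.01 for all tested genes). Of the 6, 3 had a mean under 1 FPKM. DESeq2 called 2 of them, both lower (5.30% of all genes), and edgeR 0, with 3 lower at p under 0.05 without adjustment (11.4% of all genes). CYP1B1 was at 34.6 ± 4.10 (SD, n = 3) FPKM in NC and 21.1 ± 2.91 FPKM in rhChemerin cells (log2 fold change -0.57, adjusted p = 0.117 with edgeR and 0.0179 with DESeq2). EPHX1, the microsomal epoxide hydrolase, was at 46.1 ± 5.80 and 29.9 ± 5.92 FPKM (log2 fold change -0.51, adjusted p = 0.123 with edgeR and 0.0288 with DESeq2). The lipoxygenase and leukotriene list had 9 tested genes, 7 of them below 0, and its median of -0.09 was above 0 without rhChemerin 3 (0.03) and was -0.21 without NC 1. GGT1, which cleaves leukotriene C4 and glutathione, was the only one that DESeq2 called, 1 of 9 against 9.05% of all genes, and edgeR called 0, with 4 at p under 0.05 without adjustment, against 22.8%. It was at 1.23 ± 0.206 (SD, n = 3) FPKM in NC and 0.329 ± 0.113 FPKM in rhChemerin cells (log2 fold change -1.78, adjusted p = 0.0752 with edgeR and 6.86e-05 with DESeq2), and near-identical copies may share its reads.

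The cAMP responsive genes, which can follow EP2 and EP4, had 11 tested members, 8 below 0, with a median of -0.34. This median was -0.21 without rhChemerin 1, -0.52 without rhChemerin 3 and -0.18 with limma on log2(FPKM + 1). Of the 11, 5 had a mean under 1 FPKM. Of all tested genes under 1 FPKM, 71.3% were below 0, with a median of -0.37. The counts of calls were near or under those of all genes. DESeq2 called 1 of 11, against 9.05%, and edgeR called 0, with 2 at p under 0.05 without adjustment, against 22.8%. The gene that DESeq2 called was PER1. PER1, a clock gene that cAMP induces, was at 7.13, 6.78 and 8.59 FPKM in NC 1 to 3 and 4.92, 4.35 and 3.49 FPKM in rhChemerin 1 to 3 (log2 fold change -0.70, adjusted p = 0.0752 with edgeR and 0.000968 with DESeq2). Over the 7 eicosanoid lists together, 55 genes were tested, 17 above and 38 below 0, with a median of -0.31. Of all tested genes, 6425 of 13311 were below 0. DESeq2 called 10 of the 55, all lower, against 5.30% of all genes. With edgeR 0 passed, and 19 were lower at p under 0.05 without adjustment, against 11.4% of all genes, and 4 were higher. Among the 55, 14 had a mean under 1 FPKM. Of all tested genes that low, 1626 of 2280 were below 0, with a median of -0.37, and those from 10 to 100 FPKM 0.08. The part of abundance in the list medians was not tested.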
